A study of Rattus norvegicus and Mus musculus with 12 samples.

Results

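The cathepsins and cystatin C form a set of 10 genes that were read by symbol from the count tables of rat and mouse chondrocytes, and all 10 of 10 were found in each table, among 19687 rat genes and 28603 mouse genes. Ctsb, Ctsl, Ctsk and Ctss encode cysteine endopeptidases, Ctsc, Ctsh and Ctsz encode cysteine exopeptidases, Ctsd encodes an aspartic endopeptidase, Ctsa encodes a serine carboxypeptidase, and Cst3 encodes cystatin C, the secreted inhibitor of the cysteine enzymes. The study set rat beside mouse chondrocytes after exposure to interleukin-1β (IL-1β), a cytokine used to model joint inflammation in culture. The cells came from the articular cartilage of newborn animals and were sequenced as bulk RNA at passage 1. The rat control group (RC) and the rat model group (RM) came from SD rats, and the mouse control group (MC) and the mouse model group (MM) from mice that the study's methods call C57BL/6. The strain labels of the mouse libraries carry different numbers after the slash in each replicate, so the strain is given here as the methods state it. RM and MM received 20 ng/ml IL-1β for 24 h, and RC and MC received none. Each group held 3 libraries from samples described as independent, with no statement that they came from separate animals, so the p-values given here measure only the spread between these samples, which may be technical. As a model, these were primary cells on plastic, without the matrix, load and neighbouring tissues of a joint.

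Cathepsins are made as inactive precursors, carried to the lysosome by mannose 6-phosphate receptors, and activated there as the pH drops. In cartilage they digest matrix taken up by the chondrocyte, and some of them also work outside the cell, where cathepsin K can cut the triple helix of collagen and cathepsins B and L can cut aggrecan and other matrix proteins. Cystatin C binds the active cleft of cysteine cathepsins tightly and does not inhibit the aspartic cathepsin D or the serine enzyme cathepsin A.

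The rat libraries were deeper than the mouse libraries. Total counts per library ran from 21114361 to 24897458 in RC, from 20169272 to 25903459 in RM, from 16841580 to 17957308 in MC and from 17482589 to 20048322 in MM. Levels are given below as the deposited FPKM, which scale with library size and gene length, and changes as the log2 fold change of model over control from edgeR on counts scaled by TMM, a method that sets the bulk of genes to no change. In mouse the choice matters, since scaling by library size alone moved the median log2 fold change of the 14774 genes tested by -0.28, from -0.02 to -0.30. Over all mouse genes the calls went from 5521 raised and 5564 lowered under TMM to 3697 raised and 8077 lowered under library size alone. A mouse change near that size therefore has a direction only relative to a scaling, and the value under library size alone is given beside such changes. In rat the median of the 13303 genes tested was 0.01 under TMM and 0.02 under library size alone.

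The cells expressed chondrocyte marker genes and responded to the cytokine. Summed over 13 chondrocyte marker genes, FPKM lay between 5801 and 6478 in RC and between 2376 and 2410 in RM. In mouse the sum lay between 2598 and 2652 in MC and between 250.6 and 264.7 in MM. The fibroblast markers described below summed higher than these in RM (3712 to 3912), MC (3302 to 3338) and MM (1115 to 1127). In RC their sums, 5574 to 6072, overlapped those of the chondrocyte markers. Of the chondrocyte markers Col2a1, the type II collagen chain, was the most abundant in all 4 groups. All 13 of 13 markers fell in each species, against 16.8% of all genes tested in rat and 37.7% in mouse. Their medians were -1.35 (rat) and -2.72 (mouse) on the log2 scale. Acan, the aggrecan core protein, fell most in rat (log2 fold change -1.80), and Matn3, a cartilage matrix adaptor protein, fell most in mouse (-7.08), where most refers, here and for the lists below, to genes with a mean FPKM of 10 or more in some group. All 8 of 8 genes of a short IL-1 response list rose in each species, against 18.3% of all genes tested in rat and 37.4% in mouse. The chemokine gene Cxcl1 led in rat (6.02) and the stromelysin gene Mmp3 in mouse (13.30). In bulk samples, fewer cells of a type and less RNA per cell cannot be told apart.

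The response of the set differed by species, and Ctss, whose counts were too low for the test with all libraries in either species, is left out of the counts that follow. In rat, 3 of the 9 tested genes rose, Ctsb, Ctsh and Ctsc, while 18.3% of all genes tested rose. Another 6 of 9 fell, Ctsl, Ctsk, Ctsz, Ctsd, Ctsa and Cst3, against 16.8% of all genes tested. Without RC3 or without RM2 the rat counts were 2 raised and 4 lowered. In mouse, 7 of 9 rose, Ctsb, Ctsl, Ctsk, Ctsh, Ctsz, Ctsd and Ctsa, against 37.4% of all genes, and under library size alone, or with limma on either FPKM scale, Ctsd was not among them. Cst3 alone fell in mouse, 1 of 9 genes against 37.7% of all genes, and Ctsc joined it under library size alone, with limma on either FPKM scale, and under TMM without MC1 or MM1. The set thus moved mostly down in rat and mostly up in mouse, with a median log2 fold change of -0.29 for the rat genes tested beside 0.01 for all genes, and of 0.60 for the mouse genes tested beside -0.02 for all genes. Under library size alone the mouse median was 0.32 beside -0.30.

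The study's criteria for a differentially expressed gene combine a p under 0.05, a fold change over 0.85 and an FPKM of at least 1 in some library. They name no log scale, and they were read here as an unadjusted p and an absolute log2 fold change of at least 0.85, under which few of the set passed. In rat Ctsc passed as higher, 1 gene of 9 against 4.64% of all genes, and Ctsk as lower, 1 of 9 against 3.90%. With no filter on low counts, without RC2 or without RM2, Ctss passed as lower too, for a count of 2 lower, and at a log2 threshold of 1 the count lower was 0. In mouse Ctsb passed as higher, 1 of 9 against 12.6%, and did not under library size alone or with limma on either FPKM scale. The count passing as lower in mouse was 0 of 9, against 13.0% of all genes, with edgeR, whose criterion already uses the unadjusted p, and it was also 0 with DESeq2.

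**Figure D1:**
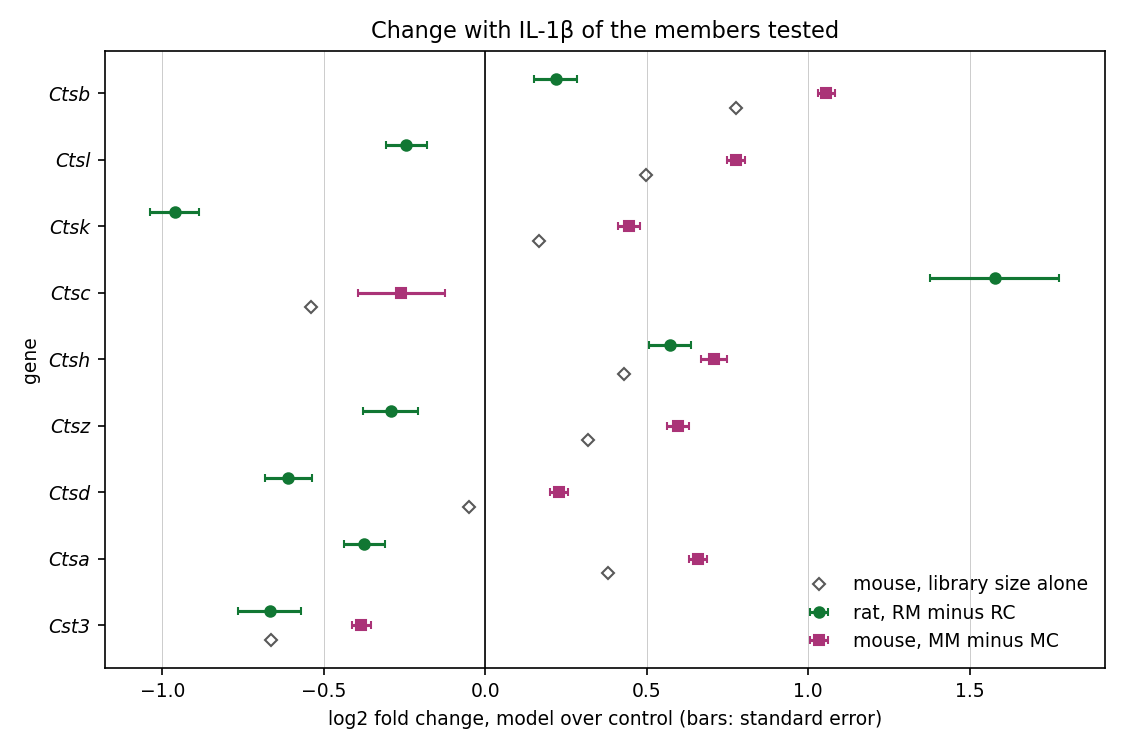
Log2 fold change of model over control for each tested gene in rat and mouse, with bars of 1 standard error and, for mouse, the value under library size alone. Ctsk lies at -0.96 in rat and 0.45 in mouse, and mouse Ctsd lies at 0.23 under TMM and at -0.05 under library size alone.

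Among the cysteine endopeptidases, cathepsin B was abundant in both species and rose in both, far more in mouse. Ctsb (listed as ENSRNOG00000010331 and ENSMUSG00000021939) stood at 622, 686 and 631 FPKM in the RC libraries and at 809, 731 and 742 in the RM libraries. Every RM library lay above every RC library, with a narrow gap. In mouse Ctsb stood at 136, 134 and 133 FPKM in MC and at 228, 234 and 228 in MM, a wide separation with little spread inside either group. The log2 fold change in rat was 0.22 (SE 0.0662, adjusted p = 0.0271) and 1.06 in mouse (SE 0.0257, adjusted p = 4.25e-44, or 0.78 under library size alone). The rat call was lost when any of 5 libraries was left out, as the adjusted p became larger than the threshold of 0.05 without RC1 (0.0547), RC3 (0.086), RM1 (0.125), RM2 (0.0586) or RM3 (0.0576), and leaving out RC2 was the only omission that kept it. Over the 6 omissions the rat value ran from 0.17 to 0.26.

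Cathepsin L, a broad endopeptidase of the lysosome, was the most abundant of the set in RC, and it moved in opposite directions in the species. Ctsl was measured at 855, 787 and 877 FPKM in RC and at 742, 711 and 698 in RM. The RM libraries all lay below the RC libraries. In mouse it was measured at 79.6, 77.1 and 78.5 FPKM in MC and at 108, 111 and 114 in MM, with all MM libraries higher. The rat fall was small (log2 fold change -0.24, SE 0.0630, adjusted p = 0.0129), and the mouse rise was larger (0.78, SE 0.0277, adjusted p = 5.82e-35, or 0.50 under library size alone). Ctsl lost its rat call without RC3 (-0.21, adjusted p = 0.0509), RM2 (-0.24, 0.0614) or RM3 (-0.22, 0.0659).

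Cathepsin K, the collagen-cutting protease best known from bone-resorbing osteoclasts, fell in rat and rose in mouse. Ctsk (ENSRNOG00000021155 and ENSMUSG00000028111) stood at 25.3, 24.8 and 25.7 FPKM in RC and at 13.1, 13.5 and 12.7 in RM. Every RM library lay far below every RC library. In mouse Ctsk stood at 136, 140 and 134 FPKM in MC and at 153, 154 and 154 in MM. The mouse groups did not overlap, although the step between them was small. Ctsk fell in rat by 0.96 on the log2 scale (SE 0.0761, adjusted p = 6.84e-06), a fold of 0.514. It rose in mouse with a log2 fold change of 0.45 (SE 0.0327, adjusted p = 2.84e-19), and of 0.17 under library size alone.

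Cathepsin S, an endopeptidase of antigen-presenting cells that stays active at neutral pH, was near the limit of detection. Ctss had 11, 8 and 22 counts in RC and 3, 8 and 4 in RM, which the tables give as 0.446, 0.348 and 1.05 FPKM in RC and 0.150, 0.312 and 0.169 in RM. In mouse it had 4, 6 and 2 counts in MC and 8, 6 and 1 in MM. The mouse groups overlapped, and in rat the counts of RC2 and RM2 were equal. Fitted without the filter on low counts, the log2 fold change of Ctss was -1.50 in rat (SE 0.580, adjusted p = 0.0643) and 0.44 in mouse (SE 0.734, adjusted p = 0.649), and neither passed. In rat the outcome depended on the library left out. Without RC2 Ctss had enough counts to be tested and passed as lower (-1.78, adjusted p = 0.0431). Without RM1, RM2 or RM3 it was tested and did not pass, with values from -1.90 to -1.32 and adjusted p from 0.0709 to 0.172. In these fits only its RC counts took it past the low-count filter, so the call without RC2 is not read as a fall. With no filter its unadjusted p of 0.018 in rat also met the study's criteria as read above, where RC3 alone reached an FPKM of 1. A difference of Ctss in mouse was not detectable at this depth.

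**Figure D2:**
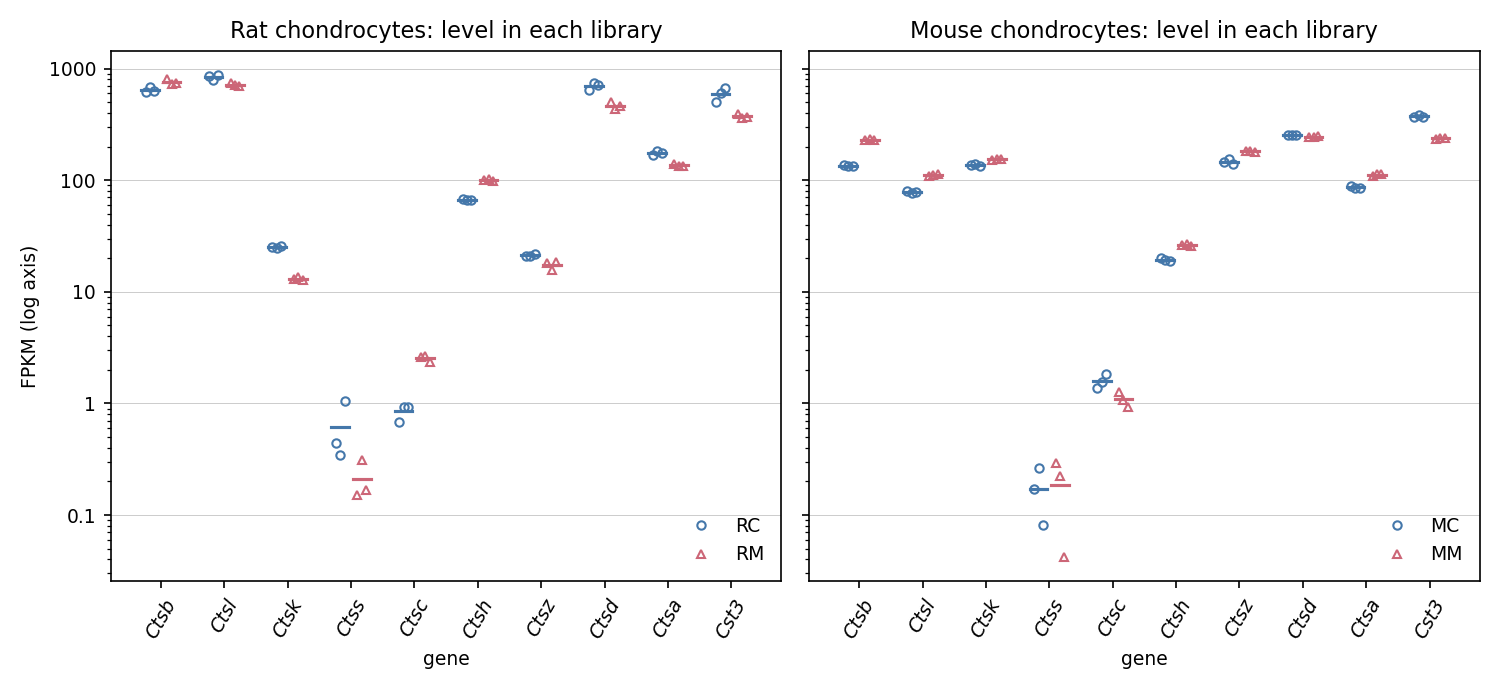
FPKM of the 10 genes in each of the 12 libraries on a log axis, with 1 point per library. Rat Ctsk runs from 12.7 to 25.7 FPKM and mouse Ctsk from 134 to 154, while Ctss stays at or below 1.05 FPKM in every library.

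The exopeptidases trim residues from the ends of proteins. Cathepsin C, also called dipeptidyl peptidase I, removes dipeptides and activates the granule proteases of immune cells. Ctsc (ENSRNOG00000016496 and ENSMUSG00000030560) had 32, 40 and 37 counts in RC and 99, 130 and 106 in RM, or 0.686, 0.919 and 0.935 FPKM against 2.62, 2.68 and 2.36. All RM libraries lay well above all RC libraries, at a level far below the other genes of the set apart from Ctss. In mouse Ctsc had 1.37, 1.55 and 1.83 FPKM in MC and 1.25, 1.08 and 0.926 in MM. The MM libraries were the lower ones, with a small gap to MC. Ctsc rose in rat with a log2 fold change of 1.58 (SE 0.200, adjusted p = 0.000174), the largest rise in the set, and of 0.95, which also passed, when limma was run on log2(FPKM + 1), where low genes change less by construction. In mouse its value was -0.26 (SE 0.134, adjusted p = 0.0747) and did not pass, while under library size alone it passed at -0.54. Without MC1 (-0.36, adjusted p = 0.0273) or without MM1 (-0.37, adjusted p = 0.0244) mouse Ctsc also passed as lower under TMM, while without MC3 (-0.14, adjusted p = 0.392) or without MM3 (-0.15, adjusted p = 0.341) its value was nearer to 0.

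Cathepsin H, an aminopeptidase, rose in both species. Ctsh was measured at 68.3, 66.6 and 65.8 FPKM in RC and at 101, 103 and 97.2 in RM, and at 20.1, 19.4 and 18.8 in MC and 26.1, 26.6 and 25.7 in MM. The groups stood clear of each other in both species. The log2 fold change was 0.57 in rat (SE 0.0653, adjusted p = 8.49e-05) and 0.71 in mouse (SE 0.0406, adjusted p = 2.69e-24, or 0.43 under library size alone). Cathepsin Z, a carboxypeptidase also called cathepsin X, was among the abundant cathepsins of the mouse cells and among the scarce ones of the rat cells. Ctsz ranged from 20.8 to 21.7 FPKM in RC and from 15.8 to 18.4 in RM, and from 139 to 153 in MC and 181 to 184 in MM. It fell in rat (-0.29, SE 0.0853, adjusted p = 0.0225) and rose in mouse (0.60, SE 0.0337, adjusted p = 1.28e-24, or 0.32 under library size alone). The rat fall of Ctsz was lost without RC3 (-0.27, adjusted p = 0.0805) or RM2 (-0.23, adjusted p = 0.118).

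Cathepsin D is the main aspartic protease of the lysosome and stands outside the reach of cystatin C. Ctsd stood at 644, 744 and 712 FPKM in RC and at 497, 436 and 460.2 in RM. The RM libraries were all lower, and Ctsd fell in rat with a log2 fold change of -0.61 (SE 0.0739, adjusted p = 0.000129). In mouse it stood at 256, 252 and 254 FPKM in MC and at 241, 246 and 249.7 in MM, so the deposited FPKM of MM lay just below that of MC. Scaled by TMM, mouse Ctsd rose (0.23, SE 0.0274, adjusted p = 3.52e-11), and under library size alone its value was -0.05 and did not pass, so its direction in mouse depends on the scaling. Cathepsin A, a serine carboxypeptidase, also holds the galactosidase encoded by Glb1 and the sialidase encoded by Neu1 in a protective complex. Ctsa ranged from 167 to 184 FPKM in RC and from 135 to 139 in RM, and from 84.5 to 88.3 in MC and from 109 to 114 in MM. It fell in rat (-0.37, SE 0.0634, adjusted p = 0.00113) and rose in mouse (0.66, SE 0.0290, adjusted p = 3.9e-30, or 0.38 under library size alone). The partners, looked up after the values were seen, fell with it in rat, Glb1 by 0.44 and Neu1 by 0.35 on the log2 scale. In mouse Glb1 rose (0.31, or 0.03 under library size alone), while Neu1 had -0.01 and did not pass, and under library size alone it passed as lower at -0.29.

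Cystatin C was the only tested gene of the set to fall in both species. Cst3 (ENSRNOG00000005195 and ENSMUSG00000027447) stood at 501, 609 and 663 FPKM in RC and at 395, 364 and 370 in RM. RC1 was the lowest control library, and all RM libraries lay below it. In mouse Cst3 stood at 371, 382 and 371 FPKM in MC and at 231, 238 and 241 in MM, with the groups far apart. The log2 fold change was -0.67 in rat (SE 0.0966, adjusted p = 0.000409) and -0.38 in mouse (SE 0.0295, adjusted p = 1.96e-18, or -0.66 under library size alone).

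Set against the enzymes it inhibits, cystatin C transcript became scarcer in both species. The FPKM of Cst3 divided by the summed FPKM of the 7 cysteine cathepsins is a quotient within a library and so does not depend on scaling between libraries. The quotient was 0.315, 0.384 and 0.408 in RC and 0.234, 0.231 and 0.235 in RM. It was 0.713, 0.727 and 0.736 in MC and 0.331, 0.334 and 0.343 in MM. Every model library lay below every control library of its species. The mean fell from 0.369 ± 0.0483 to 0.233 ± 0.00208 in rat (SD, n = 3), a ratio of model to control of 0.631, and from 0.725 ± 0.0116 to 0.336 ± 0.00624 in mouse (SD, n = 3), a ratio of 0.463. As a score over chosen genes the quotient was given no test, and it describes transcripts, not inhibitor bound to enzyme.

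**Figure D3:**
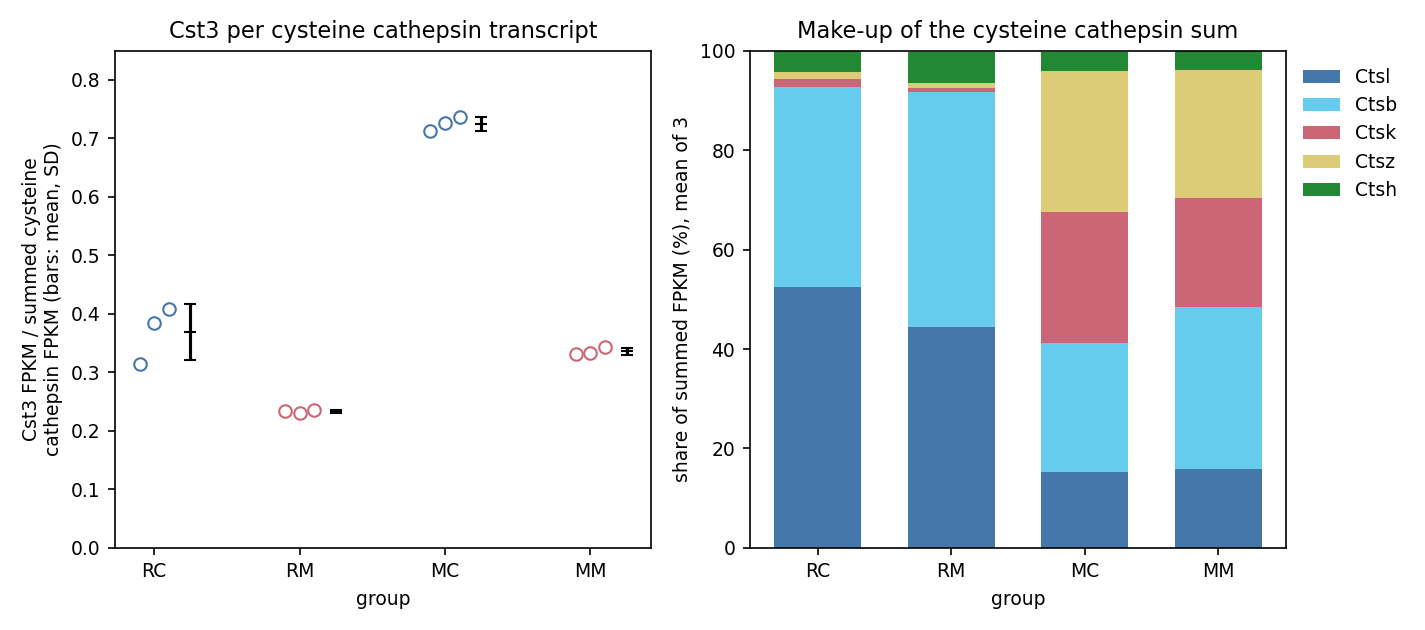
FPKM of Cst3 per summed FPKM of the 7 cysteine cathepsins in each library, with the group mean and SD. RC lies between 0.315 and 0.408, RM between 0.231 and 0.235, MC between 0.713 and 0.736 and MM between 0.331 and 0.343.

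The parts of that quotient moved differently in the species. The summed cysteine cathepsins were 1601 ± 20.1 FPKM in RC and 1611 ± 65 in RM (SD, n = 3), a ratio of 1.01, so in rat the quotient fell through Cst3. In mouse the sum went from 516.8 ± 10.8 FPKM in MC to 704 ± 6.24 in MM (SD, n = 3), a ratio of 1.36, so both parts moved. Unlike the quotient, the size of each mouse part depends on the scaling. Mouse Cst3 had -0.38 under TMM and -0.66 under library size alone, and the sum was not computed under TMM. The mix also differed. Ctsl made up 52.4% of the sum in RC and 44.5% in RM, and Ctsb 40.4% and 47.2%, while Ctsk made up 1.58% and 0.815%. In mouse 3 enzymes shared the sum more evenly, with Ctsb at 26% in MC and 32.7% in MM, Ctsk at 26.4% and 21.8%, and Ctsz at 28.3% and 25.9%. Ctsl held 15.2% of the sum in MC and 15.8% in MM.

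Ordered by mean FPKM, the set ran from Ctsl through Ctsd, Ctsb, Cst3, Ctsa, Ctsh, Ctsk and Ctsz to Ctsc and Ctss in RC. There the libraries of Ctsd and Ctsb overlapped, as did those of Ctsb and Cst3 and of Ctsc and Ctss. In RM the order was Ctsb, Ctsl, Ctsd, Cst3, Ctsa, Ctsh, Ctsz, Ctsk, Ctsc and Ctss, where only Ctsb and Ctsl overlapped among neighbours. In MC it was Cst3, Ctsd, Ctsz, Ctsk, Ctsb, Ctsa, Ctsl, Ctsh, Ctsc and Ctss, with overlaps between Ctsz and Ctsk and between Ctsk and Ctsb. In MM Ctsd came before Cst3, Ctsb, Ctsz, Ctsk, Ctsa, Ctsl, Ctsh, Ctsc and Ctss, with overlaps between Cst3 and Ctsb and between Ctsa and Ctsl. Among all genes tested, Cst3 ranked 62 in MC and 104 in RC, Ctsl ranked 66 in RC and 505 in MC, and Ctsk ranked 254 in MC and 3122 in RC. Levels were not tested between species, whose gene lengths and mappability differ.

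The species were compared by testing the difference of their changes, mouse minus rat, in a fit over the genes shared by symbol. The difference passed for 8 of 9 tested genes, against 63.8% of the 10912 shared genes tested, and for 7 of 9 under library size alone. Ctsk had a difference of 1.41 (SE 0.0717, adjusted p = 2.81e-11), followed by Ctsa at 1.03 (SE 0.0672, adjusted p = 6.42e-10) and Ctsl at 1.02 (SE 0.0701, adjusted p = 1.3e-09). These are genes that fell in rat and rose in mouse. Ctsz, Ctsd and Ctsb differed by 0.89, 0.84 and 0.84, or by 0.60, 0.54 and 0.54 under library size alone. Ctsc differed the other way, by -1.84 (SE 0.237, adjusted p = 3.36e-06), with its rise in rat. Ctsh had a difference of 0.13 (SE 0.0710, adjusted p = 0.109), which did not pass, and its sign depends on the scaling, being -0.16 under library size alone, which did not pass, and -0.17 by limma on log2(FPKM + 1), which passed.

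Cst3 differed by only 0.28 (SE 0.105, adjusted p = 0.0265), with the shallower fall in mouse, and this depended on the scaling, being -0.01 under library size alone, which did not pass. It was also lost without RC3 (0.19, adjusted p = 0.0828), RM2 (0.26, 0.0595), RM3 (0.27, 0.0558), MC1 (0.28, 0.0545), MC3 (0.27, 0.0564) or MM3 (0.28, 0.0503). Counted by direction, 5 of 9 genes, Ctsa, Ctsd, Ctsk, Ctsl and Ctsz, fell in rat and rose in mouse, against 5.18% of shared genes, and under library size alone, or with limma on either FPKM scale, the count was 4, without Ctsd. Ctsb and Ctsh rose in both species, 2 of 9 against 9.28%, and Cst3 fell in both, 1 of 9 against 10.1%. These counts shrank when some single rat libraries were left out. Those that fell in rat and rose in mouse were 3 (Ctsa, Ctsd and Ctsk) without RC3 or RM2 and 4 without RM3, and Ctsh alone rose in both species without RC1, RC3, RM1, RM2 or RM3.

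Lysosomal genes are known targets of TFEB and related factors, which bind an element built on the letters CACGTG, so the promoter windows of the set were searched for those letters and for TCACGTGA, which contains them. Both motifs read the same on either strand. The RefSeq promoter table (build GRCr8) holds 300 bases per gene, 250 before the start and 50 after, and gave a window for 9 of the 10 genes, with none for Ctsb. Of all 33469 windows, 6.42% held CACGTG and 0.777% held TCACGTGA. In the set both were found in the window of Ctsd, where CACGTG begins 157 and 10 bases before the start and TCACGTGA begins 11 bases before it. In the windows of the other 8 genes these letters were not found, which says nothing of binding elsewhere.

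The 250 bases before the start are shown for Ctsd because it holds the motifs, for Ctsk because it fell in rat and rose in mouse, and for Cst3 because it fell in both species. They are given 5′ to 3′ in lower case from the rat build GRCr8 by RefSeq, with the motifs in capitals. Ctsd lies at chr1:206968822-206969071 on the minus strand, Ctsk at chr2:185747298-185747547 on the plus strand and Cst3 at chr3:156793938-156794187 on the minus strand.
Ctsd: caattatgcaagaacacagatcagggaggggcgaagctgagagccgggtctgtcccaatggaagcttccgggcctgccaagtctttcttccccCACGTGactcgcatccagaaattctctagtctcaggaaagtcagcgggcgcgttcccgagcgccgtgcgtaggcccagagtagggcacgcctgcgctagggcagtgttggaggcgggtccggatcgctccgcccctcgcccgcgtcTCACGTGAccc
Ctsk: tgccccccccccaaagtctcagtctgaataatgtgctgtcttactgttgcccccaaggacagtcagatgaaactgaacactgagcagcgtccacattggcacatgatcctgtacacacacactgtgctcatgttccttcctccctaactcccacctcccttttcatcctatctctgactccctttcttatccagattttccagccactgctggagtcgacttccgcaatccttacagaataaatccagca
Cst3: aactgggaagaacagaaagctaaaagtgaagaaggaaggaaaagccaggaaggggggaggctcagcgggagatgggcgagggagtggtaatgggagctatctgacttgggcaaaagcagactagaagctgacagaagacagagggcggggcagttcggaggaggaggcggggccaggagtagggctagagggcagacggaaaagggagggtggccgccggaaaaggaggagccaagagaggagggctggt
G and C made up 63.2% of the Ctsd stretch, 49.6% of the Ctsk stretch and 58.8% of the Cst3 stretch, beside a median of 51.2% over all windows.

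In the mouse genome (GRCm38, GENCODE annotation) Ctsk at chr3:95499256-95509362 and Ctss at chr3:95526786-95556403 lie side by side on the plus strand, 17423 bases apart with 0 annotated genes between them. The neighbours differed widely in level, with Ctsk at 137 FPKM and Ctss at 0.172 FPKM in MC. Cst3 lies at chr2:148871722-148875692 on the minus strand and Ctsb at chr14:63122462-63145923 on the plus strand. Some mouse exons overlap other genes, and the sources used here do not state whether counting used the strand, so reads of overlapping genes cannot be told apart. Ctsb shares 774 exon bases with Fdft1 on the opposite strand, which had 7224 counts over the 6 mouse libraries against 121697 for Ctsb. Ctsa shares 495 exon bases with Pltp on the opposite strand, with 5719 counts against 51143. Ctsd shares 808 exon bases with a predicted gene on the same strand, for which no count was found. The 32.4% of its 50-base windows that also occur in that gene include this overlap, so mouse Ctsd values carry that uncertainty. Ctsl shares 1742 exon bases with an antisense transcript, for which no count was found either. Of its windows 26.3% occur in other genes, while for Ctsk, Ctss, Ctsz and Cst3 the share was 0%.

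The counts of the lists that follow stand beside shares of all genes tested of 18.3% raised and 16.8% lowered in rat and 37.4% raised and 37.7% lowered in mouse, and no list was tested as a whole. Under library size alone 3697 of the 14774 mouse genes tested rose and 8077 fell, with a median log2 fold change of -0.30. Mouse counts under that scaling stand beside these. Few other cathepsins were measured. Of 15 listed, 4 were in the rat table and Ctsf alone was tested there, with a log2 fold change of -0.23 (adjusted p = 0.0916) that did not pass. In mouse 3 were in the table and all were tested. Ctsf, a cysteine endopeptidase, rose from 22.8 to 30 FPKM (log2 fold change 0.67, or 0.39 under library size alone). Ctsw, known from killer lymphocytes, passed as raised from 0.416 to 1.33 FPKM (1.92), a low level. It had 11, 1 and 15 counts in MC and 31, 28 and 34 in MM. Its MC counts alone would not have taken it past the low-count filter, so that call is not read as a rise. Ctso fell (-0.42, or -0.70 under library size alone).

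Other inhibitors of the cystatin family were also measured. Cstb, the cytosolic inhibitor stefin B, was the most abundant of the list in all 4 groups. It fell in rat from 299 to 260.1 FPKM (log2 fold change -0.22, adjusted p = 0.0398), a call not made under library size alone (-0.20), and rose in mouse from 146 to 185 (0.63, adjusted p = 1.05e-21, or 0.35 under library size alone). Mouse Stfa3, a stefin A gene with no match in the rat table, had 0 counts in every MC library and 234, 237 and 185 counts in MM, where it stood at 28.3, 29.4 and 25.7 FPKM. Against a floor of 3 counts over the control group, Stfa3 was at least 241-fold higher in MM, or at least 199-fold under library size alone. Cst6, the secreted cystatin E/M, rose in mouse from 3.31 to 7.61 FPKM (1.48) and had -0.12 in rat, which did not pass.

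The remaining tested genes with cystatin domains were scarce. The kininogen genes Kng1 (-1.31) and Kng2 (-0.68) passed as lowered in mouse at levels below 1 FPKM. Kng1 had 35, 26 and 36 counts in MC and 11, 8 and 16 in MM. Only its MC counts took it past the low-count filter, so that call is not read as a fall. Fetub, a fetuin, had 5, 3 and 0 counts in RC and 12, 12 and 14 in RM. It passed as raised in rat (2.18), but only its RM counts took it past the low-count filter, so that call is not read as a rise. In mouse Fetub passed as raised from 0.690 to 0.936 FPKM (0.72, or 0.44 under library size alone, which did not pass). There MC1, at 1.07 FPKM, lay above every MM library, so the groups overlapped. Of the 6 tested in mouse, 4 passed as raised and 2 as lowered, with a median of 0.67, which was the same with Stfa3 set at its bound. Under library size alone 3 passed as raised and 2 as lowered, with a median of 0.40. In rat 1 of 3, Fetub, passed as raised and 1 fell, with a median of -0.12.

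Other genes activate cathepsins and carry them to the lysosome, and none of these rose in rat. In rat 6 of 12 fell, against 16.8% of all rat genes, and the other 6 did not pass, with a median log2 fold change of -0.18, and Gga2, an adaptor that loads mannose 6-phosphate receptors into vesicles, fell by 0.34. In mouse 5 of 12 rose and 5 fell, near the 37.4% and 37.7% of all mouse genes, with a median of -0.01. Under library size alone 3 rose and 7 fell, with a median of -0.28 beside -0.30 for all mouse genes. Igf2r, the large mannose 6-phosphate receptor, rose in mouse from 83.4 to 134 FPKM (0.97), while Gga2 fell from 13.5 to 4.03 FPKM (-1.47). In rat Igf2r had -0.11 and did not pass. Lgmn, the protease that trims cathepsin precursors, was looked up after the values were seen and fell in rat (-0.30) and in mouse (-0.40, or -0.68 under library size alone).

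Lysosomal hydrolases break down sugars, lipids and proteins. Of 33 tested in rat 3 rose and 19 fell, against 18.3% and 16.8% of all rat genes, with a median of -0.29. Manba, a mannosidase, rose most (0.70), and Dpp7, a dipeptidyl peptidase, fell most (-0.65). In mouse 16 of 35 rose and 13 fell, against 37.4% and 37.7% of all mouse genes, with a median of 0.05. Under library size alone 8 rose and 21 fell, with a median of -0.22 beside -0.30 for all mouse genes. That scaling shifts all mouse genes alike, so the change of these counts says nothing of the hydrolases. Gla, the galactosidase deficient in Fabry disease, rose in mouse (1.75), and Prcp, a carboxypeptidase, fell (-0.83).

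The lysosomal membrane carries the proton pump that acidifies the lumen. In rat 10 of 25 genes fell, against 16.8% of all rat genes, and 15 did not pass, with a median of -0.21, and Ctns, the cystine exporter, fell most (-0.62). In mouse 21 of 27 rose and 4 fell, against 37.4% and 37.7% of all mouse genes, with a median of 0.31. Under library size alone 13 rose and 8 fell, with a median of 0.03 beside -0.30 for all mouse genes. The difference between species was not tested for this list. Atp6v0c, a pump subunit, rose most in mouse (0.88), and Ctns fell there too (-0.49, or -0.77 under library size alone).

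Among 18 regulators of lysosomal genes, 14 were tested in rat, where 1 rose and 5 fell, against 18.3% and 16.8% of all rat genes, with a median of -0.10, and Lamtor1, an anchor of nutrient signalling on the lysosome, fell most (-0.48). All 18 were tested in mouse, where 12 rose and 2 fell, against 37.4% and 37.7% of all mouse genes, with a median of 0.28. Under library size alone 8 rose and 8 fell, with a median of -0.0016 beside -0.30 for all mouse genes. Rraga, a small GTPase of the same pathway, rose most among the abundant ones in mouse (0.84). The transcription factors, looked up after the values were seen, did not move together. In mouse Mitf rose (2.01), Tfe3 rose (0.77, or 0.50 under library size alone) and Tfeb fell (-1.82). Tfec, of the same family, also passed as raised in mouse, on 1 count in MC and 34 in MM, a ratio of 37.5 after TMM scaling (95% exact Clopper-Pearson interval 6.3 to 1525, counting error only). In rat Mitf rose (0.80), while Tfeb (0.19) and Tfe3 (-0.02) did not pass and Tfec was too low to test.

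**Figure D4:**
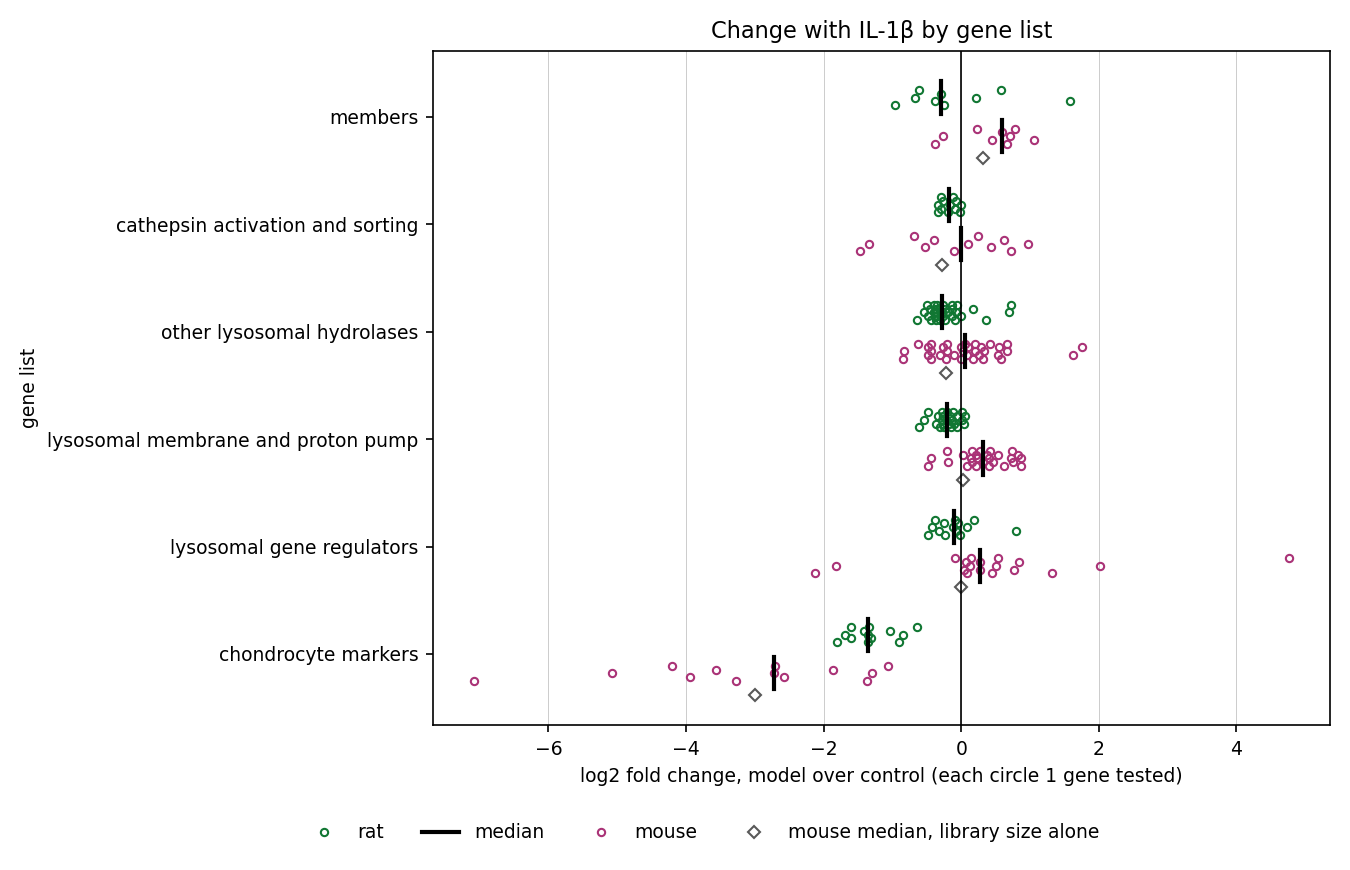
Log2 fold change of each tested gene in 6 lists, rat and mouse apart, with the median of each list and, for mouse, the median under library size alone. The cathepsins and cystatin C have medians of -0.29 in rat and 0.60 in mouse (0.32 under library size alone), and the membrane and pump list has -0.21 and 0.31 (0.03 under library size alone).

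Genes of the class II pathway, which cathepsin S serves in antigen-presenting cells, were low in these cells, apart from Ifi30. In rat Cd74, the invariant chain that cathepsin S cuts, had 3, 2 and 4 counts in RC and 10, 11 and 12 in RM. It passed as raised (log2 fold change 1.80, adjusted p = 0.0144). Only its RM counts took it past the low-count filter, so that call is not read as a rise. Ifi30, a lysosomal thiol reductase, had -0.21 in rat and did not pass. In mouse neither Ciita (0.77) nor Ifi30 (-0.04) passed, although under library size alone Ifi30 passed as lower (-0.31), and Cd74 was too low to test, with 6 counts in MC and 38 in MM.

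Macrophages and osteoclasts carry cathepsins S and K, so their markers were read in the same libraries. Of 16 macrophage markers 15 were in the rat table and 16 in the mouse table, with summed FPKM between 24.6 and 29.6 in RC, between 35 and 39.9 in RM, between 7.96 and 9.07 in MC and between 35 and 37.6 in MM. Cd14, the endotoxin co-receptor, was the most abundant in RC, RM and MM, and Cd68 in MC. Cd14 rose in rat from 12.4 to 22.7 FPKM (0.86) and in mouse from 1.87 to 24.1 (3.96). Cd68 and Csf1r, singled out after the values were seen, split, since Cd68, a lysosomal membrane protein, rose in rat (0.92) and mouse (1.50), while Csf1r, the macrophage growth factor receptor, fell in rat (-1.20) and rose in mouse (0.70, or 0.42 under library size alone, which did not pass). Some defining markers were near 0. Ptprc, the common leukocyte antigen, had 20 counts in RC and 16 in RM over the group, and 3 in MC and 1 in MM, and Itgam had 0 counts in every mouse library. Of the tested markers 3 of 9 rose and 3 fell in rat, and 4 of 5 rose in mouse, while the other did not pass. Under library size alone 3 rose and 1 fell in mouse. The sums were higher in the model groups, but without Cd14 the rat sums overlapped, between 13.4 and 15.9 FPKM in RC and between 12.6 and 17.6 in RM, while the mouse sums lay between 6.50 and 7.19 in MC and between 11.0 and 13.7 in MM. The part of these markers in the Ctsc and Ctss values was not tested.

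Osteoclast markers, 7 of 9 in the rat table and 8 of 9 in the mouse table, summed to 15 to 16.2 FPKM in RC, 17.5 to 21.7 in RM, 8.76 to 9.21 in MC and 7.23 to 8.03 in MM. Nfatc1, a transcription factor that other cells express as well, had the highest mean in each group, at 8.29 FPKM in RC, 7.66 in RM, 5.53 in MC and 4.80 in MM. Calcr, the calcitonin receptor, had 0 counts in RC and MC, 1 in RM and 3 in MM. Of 3 tested in each species, 1 rose and 1 fell in rat, and 1 passed as raised in mouse, where under library size alone the other 2 passed as lower. The genes behind these counts are named after their values were seen. Mmp9, a gelatinase, rose in rat from 0.196 to 7.34 FPKM (5.19). In mouse Mmp9 passed as raised from 0.0553 to 0.665 FPKM (3.83), but only its MM counts took it past the low-count filter, so that call is not read as a rise. Acp5, the tartrate-resistant phosphatase of osteoclasts, fell in rat from 6.93 to 4.36 FPKM (-0.69, adjusted p = 0.00456), as Ctsk did. In mouse Acp5 had -0.33, which did not pass, or -0.61 under library size alone, which passed as lower. Without Mmp9 the sum lay between 14.8 and 16.1 FPKM in RC and between 11.6 and 12.8 in RM, so the higher rat sum in RM rests on Mmp9. The part of these markers in the Ctsk values was not tested.

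Fibroblast markers, which cultured chondrocytes also express, summed to 5574 to 6072 FPKM in RC, 3712 to 3912 in RM, 3302 to 3338 in MC and 1115 to 1127 in MM. In rat 1 of 10 rose and 5 fell, with Col3a1, a collagen of loose tissue, falling most (-0.98). The most abundant of these markers was Col1a1 in RC and S100a4 in RM. In mouse 3 of 9 rose and 6 fell, or 1 and 7 under library size alone, with Col1a2 falling most (-2.05) and Pdgfra, a growth factor receptor, at 0.26, or -0.02 under library size alone. The part of these markers in the cathepsin values was not tested.

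The genes whose values over the 12 libraries lay nearest to Ctsk and to Cst3 were found among 4011 genes by the root mean square distance of their log2 CPM, measured from the mean of the control group of the species. Nearest to Ctsk were Col16a1, a fibril-associated collagen, at 0.0938, Cdkn2b, a cell cycle inhibitor, at 0.0977, and Enpp2, which makes lysophosphatidic acid, at 0.113. Nearest to Cst3 were P3h4 (0.0777), Uap1l1 (0.0828) and Cpt2 (0.0902), genes of collagen modification, sugar nucleotide metabolism and fatty acid entry into mitochondria. These distances describe the libraries and say nothing of shared control. Ctss was too low for this comparison.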

How the data were processed

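Bulk RNA-seq libraries of RC, RM, MC and MM (3 each) were used. The authors deposited counts and FPKM per gene for each species, and their notes list HISAT2, HTSeq 0.11.2, GRCm38 and Rnor_6.0 without roles. Neither strand setting nor annotation release is stated there. The counts were fitted per species with edgeR 4.0.16 (R 4.3.3), with filterByExpr, TMM and the quasi-likelihood test, and all adjusted p-values are Benjamini-Hochberg over all genes tested, with 0.05 as the threshold. With filterByExpr a gene can pass through the counts of 1 group alone, as did rat Cd74 and Fetub and mouse Stfa3, Tfec and Mmp9. Mouse Kng1 did so too, as did rat Ctss where it was tested with a library left out. The MC counts of mouse Ctsw alone would not have passed. Calls of such genes rest in part on that selection. SE was computed as the absolute log2 fold change over the root of F. Differences between species were tested in 1 fit over shared symbols, with 1 dispersion per gene for both species. The methods were tested on simulated data in which 200 genes per species changed, each up or down at random. That setting has no shift like that of the mouse genes between scalings, so it cannot decide between them. Alternatives were library size alone, DESeq2 1.42.0, no filter, limma 3.58.1 on log2(FPKM + 1) or log2(FPKM + 0.1), a replicate block, each library left out and a log2 threshold of 1. Outside the set, genes named are, per list and species, the largest rise and fall among those averaging 10 FPKM or more in either group, and every tested gene of the other cathepsin, cystatin and class II lists, unless said otherwise. The members and lists were chosen with earlier results of these data known.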

Additional observations from a re-analysis of the deposited data

Results flagged for a closer look

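The effect of IL-1β differed between rat and mouse for 8 of 9 tested genes, beside 63.8% of all shared genes, by edgeR's quasi-likelihood test of the difference itself with Benjamini-Hochberg adjustment. That test used 1 spread per gene for both species, so its p-values may be too small. The difference in log2 fold change, mouse minus rat, was 1.41 for Ctsk, 1.03 for Ctsa, 1.02 for Ctsl, 0.89 for Ctsz, 0.84 for Ctsb, 0.84 for Ctsd, 0.28 for Cst3 and -1.84 for Ctsc. The species differ in the whole culture, and a cause was not tested. The Cst3 difference was -0.01 under library size alone and is the only one of the 8 whose sign turned under a scaling alternative. Its call was also lost in 6 of the 12 fits that left out a library.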

How the results depend on the processing

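DESeq2 kept the direction and call of all 27 log2 fold changes and differences of the set. With each library left out in turn, 198 such values kept their direction and call, 16 lost the call and 2 gained it, none changing sign. The values that changed sign did so under library size alone or under limma on FPKM, which use no TMM factor, and beyond that construction the cause was not tested. Under library size alone, mouse Ctsd was -0.0501, the Cst3 difference between species -0.0117 and the Ctsh difference -0.16. With limma on log2(FPKM + 1), mouse Ctsd was -0.0494, the Cst3 difference -0.0191 and the Ctsh difference -0.17, which passed in that direction. With limma on log2(FPKM + 0.1), mouse Ctsd was -0.0495. Under each of these 3 settings the count of mouse genes lowered went from 1 to 2 (Ctsc joined) and the count passing the study's criteria as higher from 1 to 0 (Ctsb left).

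The rat count passing those criteria as lower went from 1 to 2 with no filter (Ctss joined) and to 0 at a log2 threshold of 1. With each library left out in turn it ran from 1 to 2, with Ctss joining without RC2 or without RM2, and the count of mouse genes lowered ran from 1 to 2, with Ctsc joining without MC1 or without MM1. The rat counts ran from 2 to 3 raised and from 4 to 7 lowered (7 without RC2, with Ctss), the mouse count raised stayed at 7, and the count differing between species ran from 7 to 8.

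Same-numbered libraries did not deviate together, with correlations of 0.01, -0.34 and 0.22 in rat and 0.01, 0.02 and 0.02 in mouse, so the numbers were not taken as pairs. With the replicate block, 3 rat genes were raised and 6 lowered, 7 mouse genes raised and 1 lowered, and 8 differed between species, and no call of the set changed. Over all genes the block gave 2436 raised and 2098 lowered in rat, and 5503 and 5544 in mouse.

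Over all rat genes, library size alone moved the split from 2429 raised and 2238 lowered to 2569 and 2094. The quotient of Cst3 computed from CPM, not divided by length, was 0.165 in RC, 0.102 in RM, 0.259 in MC and 0.11 in MM, lower in the model groups as before. The main limits are 3 libraries per group of unstated animal origin, a single dose and time, transcripts without protein or enzyme activity, and a mouse direction that depends on scaling for changes near 0.28. Ctss had at most 22 counts in a library, too few for the test with all libraries. The mouse call of Ctsc depended on the scaling and on the library left out.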
